A study of Danio rerio with 114 samples.

Results

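The transcripts of 4 zebrafish germ plasm genes were followed from the oocyte to the early embryo: *ddx4* (*vasa*, ENSDARG00000014373), *dazl* (ENSDARG00000036214), *nanos3* (ENSDARG00000068255) and *dnd1* (*dead end 1*, ENSDARG00000022813). They were chosen by name as genes known for the germ line, with earlier results of these data known, and are 4 of the 31466 genes counted. All 4 were read in each of the 114 libraries, with between 110 and 61445 reads per library. The identifier listed for *dnd1* was ENSDARG00000045139, which carries the symbol *CA7* in the reference and had 0 reads in the 114 libraries (3 reads, the limit that a count of 0 allows, are at most 2.08 CPM), so *dnd1* was taken as the identifier whose symbol is *DND1*.

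In zebrafish the germ line is set by germ plasm, an assembly of maternal RNA and protein that forms in the oocyte and that only a few cells of the embryo inherit. Ddx4 (Vasa) is an RNA helicase of germ granules, Dazl binds mRNAs and promotes their translation, Nanos3 is a zinc-finger protein of a family that acts with Pumilio to silence mRNAs, and Dnd1 is an RNA-binding protein that zebrafish germ cells need for migration and survival. The 4 mRNAs are made in the oocyte and stored, and stored mRNAs of this kind are known to gain or lose polyA tail at egg maturation and after fertilization, which changes how well they are captured by polyA selection.

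Wild-type fish of the TLAB strain were compared with homozygous *ski7*-/- fish, which carry 1 frameshift allele in the exon that only the *ski7* splice variant of *hbs1l* uses and were derived from TLAB fish. Ski7, as known from yeast, bridges the cytoplasmic RNA exosome and the Ski complex in mRNA degradation, and the study asked which RNAs change without it across the oocyte-to-embryo transition. Each genotype was sampled at 11 stages with 3 replicates: oocyte stages I, II, III and IV-V (O1 to O4) taken from the ovaries of 3 females and told apart by their size and opacity, unactivated, activated and fertilized eggs (INA, ACT and FER) laid by or squeezed from the same female in each replicate, and pools of embryos with 2 cells (E1), 64 cells (E2), 1000 cells (E3) and at sphere stage (E4). RNA was selected by polyA tail at all 11 stages (66 libraries) or depleted of ribosomal RNA (RiboMinus) at the 8 stages of oogenesis and embryogenesis (48 libraries). Only eggs of good quality were collected, and the sources do not say whether the embryos of a replicate number come from 1 clutch at all stages.

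Levels are given as normalised CPM, the reads on a gene per 1000000 reads on genes, scaled by TMM factors within each period and library type. Within the periods the factors lie between 0.763 and 1.11, but the scales of different periods differ by more, and the factor of the third wild-type library of fertilized eggs was 0.851 among eggs and 0.521 over all 66 polyA libraries. Among eggs all wild-type factors (0.851 to 1.015) lay below all mutant ones (1.05 to 1.11), so differences between genotypes in eggs depend on the scaling. In polyA embryos the wild-type factors also lay below the mutant ones at E1 (0.7634 to 0.7945 against 0.8359 to 0.872), E2 and E4. Scaled by library size alone, the median log2 fold change of all genes between genotypes went from -0.01 to 0.11 at E1. Steps between periods have their own fit, and orders over all stages use 1 scale over the 66 polyA or 48 RiboMinus libraries. Ranks of stages from different periods depend on that scale. CPM are not divided by transcript length, so levels are compared between samples and not between genes. In whole embryos, fewer germ plasm-bearing cells and less RNA per cell cannot be told apart. Differences were tested with edgeR's quasi-likelihood test over all genes, and a gene was called where the p-value adjusted by Benjamini and Hochberg was under 0.05. Where groups are said to overlap or to lie apart, this describes the libraries only, as the share of all genes with groups apart is not given.

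The polyA libraries held 2910639 to 145420525 reads assigned to genes, and the RiboMinus libraries 1439427 to 46600444. Reads of the whole *hbs1l* locus, which do not single out the *ski7* exon and so do not check the genotype, were lower in mutants at 2 of 19 comparisons and higher at 0. In a typical library 4.03% to 6.42% of genes were over 2-fold away from the other replicates of the group (medians of the periods and library types), and some libraries stood apart: *ski7*-/- O2 polyA replicate 1 at 18.1%, wild-type replicate 3 of the eggs at 11% to 13.8%, wild-type replicate 1 of INA and FER eggs at 8.79% and 9.43%, *ski7*-/- INA replicate 3 at 9.79%, and wild-type E2 replicate 2 at 8.67% in polyA and 8.79% in RiboMinus. The 6 oocyte markers matched (*figla*, *gdf9*, *zar1* and others) summed to 876 to 2384 normalised CPM in wild-type polyA oocytes and to 83.3 to 110.4 in eggs. In wild-type RiboMinus RNA they summed to 606 to 875 at O4 and to 479 to 542 at E1, so the fall in polyA RNA is not matched there. Oocytes, eggs and embryos are on separate scales here. Of the 9 follicle cell markers matched, *cyp17a1* was read at all stages, while the sum of the other 8 reached 117 to 192 normalised CPM in wild-type polyA O4 and at most 1.46 in wild-type eggs. Of the 9 markers of zygotic transcription matched, *apoeb* varied widely between INA libraries. From low to high it had 0.384, 262.7 and 585 normalised CPM in wild type and 0.144, 0.715 and 1416 in *ski7*-/-. The other 8 summed to 25.1 to 61.7 in wild-type polyA E4 and to at most 0.844 from E1 to E3.

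In wild-type polyA RNA *dazl* changed most among the 4 genes, and its level fell steeply after the 2-cell stage. The 3 libraries had 339, 354 and 365 normalised CPM at O1 and 299.9, 362 and 353 at O4. In INA eggs they had 931, 1106 and 1258, and in fertilized eggs 707, 896 and 1418. All egg libraries lay above all oocyte libraries, also on 1 scale over all stages (906 to 2316 against 249.7 to 348), with replicate 3, one of those that stood apart, the highest at each egg stage. In embryos the level was 1073, 942 and 926 at E1, then 412, 475 and 368 at E2, 235, 188 and 226 at E3 and then 92.6, 92.9 and 106 at E4, with no overlap between neighbouring stages. The steps had a log2 fold change of -1.23 ± 0.11 (SE; adjusted p = 2.15e-08) from E1 to E2, -0.95 ± 0.11 (adjusted p = 0.000128) from E2 to E3 and -1.15 ± 0.12 (adjusted p = 7.78e-06) from E3 to E4. Of all genes tested, 59.7%, 14.2% and 2.51% passed the test at these steps. On 1 scale over all stages, the means of *dazl* ran from INA (1653 ± 365, SD, n = 3) through ACT, FER, E1, E2, O1, O4, O2, O3 and E3 to E4 (78.0 ± 6.45), and neighbours in this order overlapped among INA, ACT, FER and E1 and among E2, O1, O4 and O2, 6 of the 10 pairs.

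**Figure D1:**
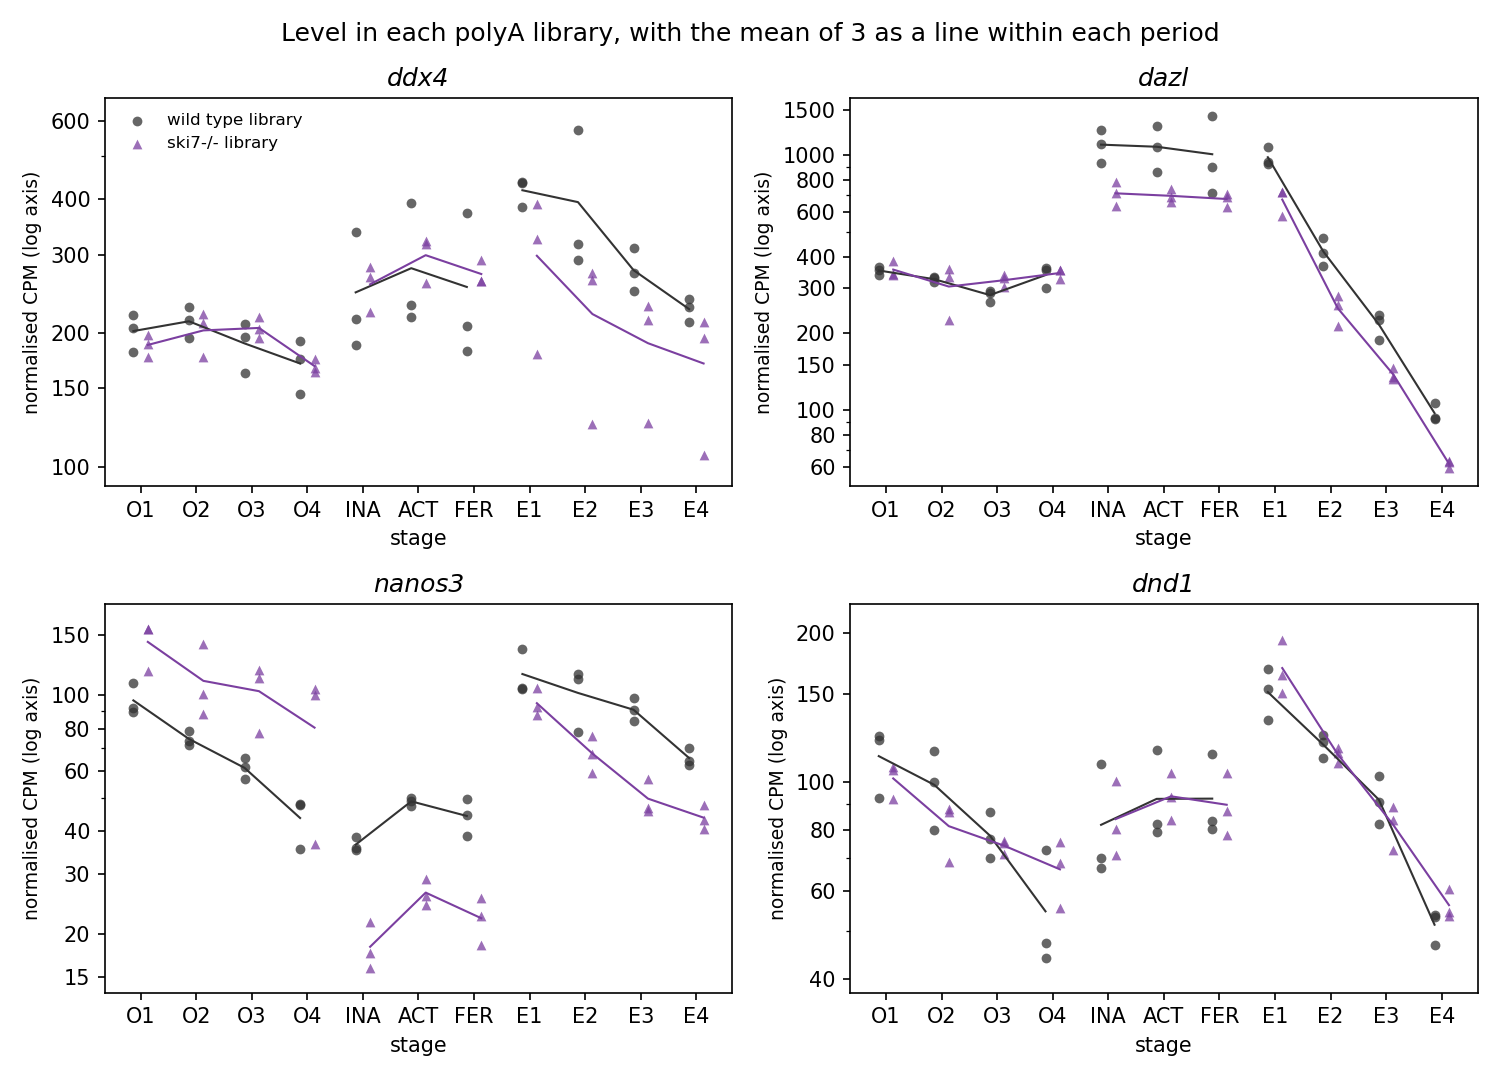
Normalised CPM (log axis, scaled within each period) of each gene in each polyA library by stage, wild type as dots and *ski7*-/- as triangles, with lines through the means of 3 libraries within a period. The *dazl* level in wild type goes from 1073, 942 and 926 at E1 to 92.6, 92.9 and 106 at E4, and the *nanos3* level of *ski7*-/- libraries lies below wild type at each egg stage.

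The level of *dnd1* in wild-type polyA RNA followed a similar course over the embryo stages with smaller steps. It was 169, 154 and 133 normalised CPM at E1, 112, 120.2 and 124 at E2, then 82.0, 103 and 91.1 at E3 and then 46.8, 53.9 and 53.4 at E4, with no overlap between neighbours. The log2 fold change was -0.36 ± 0.11 (adjusted p = 0.00933) from E1 to E2, -0.37 ± 0.11 (adjusted p = 0.0333) from E2 to E3 and -0.84 ± 0.11 (adjusted p = 0.000133) from E3 to E4. The first step depends on the scaling. With library size alone it was 0.02 while the median of all genes moved from 0.07 to 0.45, and the *dazl* step of the same stages was then -0.86. Without wild-type replicate 1 these *dnd1* steps from E1 to E2 and from E2 to E3 were -0.26 and -0.34, neither called. The step from E2 to E3 was not called without replicate 2 (-0.44) or 3 (-0.33) either.

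In oocytes the *dnd1* level went from 124, 92.6 and 122 normalised CPM at O1 to 72.9, 47.2 and 44.1 at O4, and the groups of neighbouring stages overlapped, with replicate 1 the highest at each of the 4 stages. The step from O3 to O4 had a log2 fold change of -0.51 ± 0.18 (adjusted p = 0.156) between independent groups and -0.53 (adjusted p = 0.0266) with the female as a block, over alternatives from 0.0266 to 0.767. In eggs the libraries ranged from 66.8 to 116, with replicate 3 the highest at all 3 stages. On 1 scale over all stages the order by mean was ACT, FER, E1, INA, O1, E2, O2, E3, O3, O4 and E4, from 139 ± 50.4 to 41.2 ± 3.50 (SD, n = 3), and all 10 neighbouring pairs overlapped. With library size alone E2 was the highest and O4 the lowest, so the order of periods turns with the scaling.

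In wild-type polyA RNA each *nanos3* mean of an oocyte stage was lower than that of the stage before. It went from 91.9, 89.2 and 109 normalised CPM at O1 through 71.6, 73.4 and 78.7 at O2 and 61.6, 65.8 and 57.0 at O3 to 48.1, 47.7 and 35.5 at O4, with no overlap between neighbouring stages, yet none of the 3 steps passed the test (adjusted p = 1, 0.729 and 0.442). Eggs had 35.8, 35.4 and 38.6 when unactivated and 47.5, 50.2 and 49.2 when activated, again apart, with a log2 fold change of 0.42 ± 0.16 (adjusted p = 1), and of 0.42 (adjusted p = 0.0299) with the female as a block, over alternatives from 0.0299 to 1. Fertilized eggs had 38.7, 44.7 and 49.7. Embryos had 137, 105 and 105 at E1, then 112, 78.1 and 115 at E2, 83.9, 98.0 and 90.6 at E3 and then 62.7, 64.2 and 70.1 at E4, where only the last group stood apart from its neighbour, at -0.47 ± 0.14 on the log2 scale (adjusted p = 0.107). On 1 scale over all stages the order by mean was E1, O1, E2, E3, ACT, O2, FER, O3, INA, E4 and O4, from 101 ± 15.5 to 40.9 ± 6.81 (SD, n = 3), and 9 of the 10 neighbouring pairs overlapped. With library size alone E2 was the highest and INA the lowest, below O4, so here too the rank of eggs turns with the scaling.

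For *ddx4* each of the 10 neighbouring pairs in the order of means overlapped, scaled within periods, over all stages or by library size alone. Wild-type oocytes had between 146 and 228 normalised CPM. Eggs had 215, 188 and 337 when unactivated, 217, 230.4 and 392 when activated and 207, 182 and 372 when fertilized, with replicate 3 well above the other 2 each time. Embryos had 434, 437 and 384 at E1, then 292, 572 and 316 at E2, 248, 309.6 and 273 at E3 and then 211, 238 and 229 at E4, and the E2 value of replicate 2, a library that stood apart, was the highest of the embryo libraries. On 1 scale over all stages the order was ACT (426 ± 209, SD, n = 3), INA, FER, E1, E2, E3, O2, O1, E4, O3 and O4 (159 ± 21.9), while with library size alone E2 was the highest and O4 again the lowest. For *ddx4* edgeR called 0 of its 14 steps between neighbouring stages within a period in both library types together, with 0 at an unadjusted p under 0.05. Steps within oogenesis and the egg passed in few genes: of all genes tested, 0.0% from O1 to O2, 3.5% from O2 to O3, 2.88% from O3 to O4, 0.0% from INA to ACT and 0.0% from ACT to FER, and none of the 4 genes.

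Between the last oocytes and the unactivated egg, polyA levels of *dazl*, *dnd1* and *ddx4* rose relative to the other genes. These steps between periods come from a fit over all 66 polyA libraries, in which the TMM factors ranged from 0.515 to 1.36, so the scaling counts for more here. On that scale *dazl* had 281, 337 and 329 normalised CPM at O4 and 1314, 1604 and 2040.3 at INA, a log2 fold change of 2.39 ± 0.22 (adjusted p = 7.48e-14). The fold change was 1.28 ± 0.21 for *dnd1* (adjusted p = 3.64e-07), 1.23 ± 0.32 for *ddx4* (adjusted p = 0.00048) and 0.43 ± 0.24 for *nanos3* (adjusted p = 0.0943), with no overlap for any of the 4, and 78.5% of all genes passed. With library size alone, where the median of all genes moved from -0.17 to -1.01, the values were 1.53 for *dazl*, 0.42 for *dnd1*, 0.36 for *ddx4* (no longer past the threshold) and -0.42 for *nanos3*. From fertilized eggs to E1 the fold change was -0.78 ± 0.21 for *dazl* (adjusted p = 0.00202), with overlapping groups, and 0.66 ± 0.23 for *nanos3* (adjusted p = 0.0184), while *ddx4* (-0.02) and *dnd1* (-0.01) were not called and 45.0% of all genes were. The *dazl* step was -0.25 without wild-type replicate 3 and -0.27 with library size alone, neither called. The *dnd1* step was 0.47 and called with library size alone, where the median of all genes moved from -0.04 to 0.38. The *nanos3* step was 0.38 without replicate 1 and 0.64 without replicate 2, neither called.

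In RiboMinus libraries, which do not select for a tail, the stage means of *dazl* and *dnd1* spanned a narrower range than in polyA libraries. On 1 scale over all stages the highest stage mean in wild type was 2.42 times the lowest for *dazl*, 2.45 times for *nanos3*, 1.97 times for *ddx4* and 1.77 times for *dnd1*. Over the same 8 stages of polyA RNA this fold was 11 for *dazl*, 2.47 for *nanos3*, 2.31 for *ddx4* and 3.23 for *dnd1*.

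*Dazl* had 353, 327 and 379.6 normalised CPM at O1, 302, 301 and 306 at O2, then 231, 286 and 269 at O3 and then 245, 270.5 and 241 at O4. It had 237, 236 and 259.5 at E1, then 245, 283 and 269 at E2, 216, 203 and 260.4 at E3 and then 149.8, 194 and 167 at E4. The groups of O1, O2 and O3 did not overlap, and E4 lay below E3, a step of -0.40 ± 0.10 on the log2 scale (adjusted p = 0.0617, over alternatives from 0.0149 to 0.511). That step was called in 3 of the 7 alternatives run. *Nanos3* went from 193, 176 and 202 at O1 and 156, 173 and 147 at O2 to 95.1, 88.1 and 90.0 at E4, the lowest of its stages and apart from E3. *Ddx4* went from 234, 281 and 273 at O1 to 187, 205 and 207 at E1 and 141, 188 and 167 at E4, and replicate 2 stood out at E2 in this library type too, at 194, 336 and 199.8. *Dnd1* ranged over 63.8 to 128 in oocytes, with replicate 2 the lowest at each stage, and over 72.7 to 101 in embryos. In order of means on 1 scale over all stages, overlap with the next stage was seen in 3 of 7 pairs for *dazl*, 5 for *nanos3*, 7 for *ddx4* and 6 for *dnd1*.

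Of the 4 genes, 0 passed edgeR's test at any RiboMinus step within a period, with background shares of 2.83% from O1 to O2, 10.0% from O2 to O3, 1.71% from O3 to O4, 0.0% from E1 to E2, 0.0% from E2 to E3 and 0.817% from E3 to E4. At an unadjusted p under 0.05 there were 5 of the 24 tests. With the female as a block the O1 to O2 step was past the threshold for *dnd1* (-0.27, adjusted p = 0.00335, over alternatives from 0.00335 to 0.936) and *nanos3* (-0.27, adjusted p = 0.044, over alternatives from 0.044 to 1). From O4 to E1, the nearest RiboMinus stages across egg maturation, the log2 fold change was -0.29 ± 0.09 for *dazl* (adjusted p = 0.00921), -0.47 ± 0.20 for *ddx4* (adjusted p = 0.0573), -0.38 ± 0.17 for *nanos3* (adjusted p = 0.0746) and -0.03 ± 0.14 for *dnd1* (adjusted p = 0.886), and 43.5% of all genes passed. The *dazl* value was -0.22 without wild-type replicate 2 and -0.09 with library size alone, neither called.

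**Figure D2:**
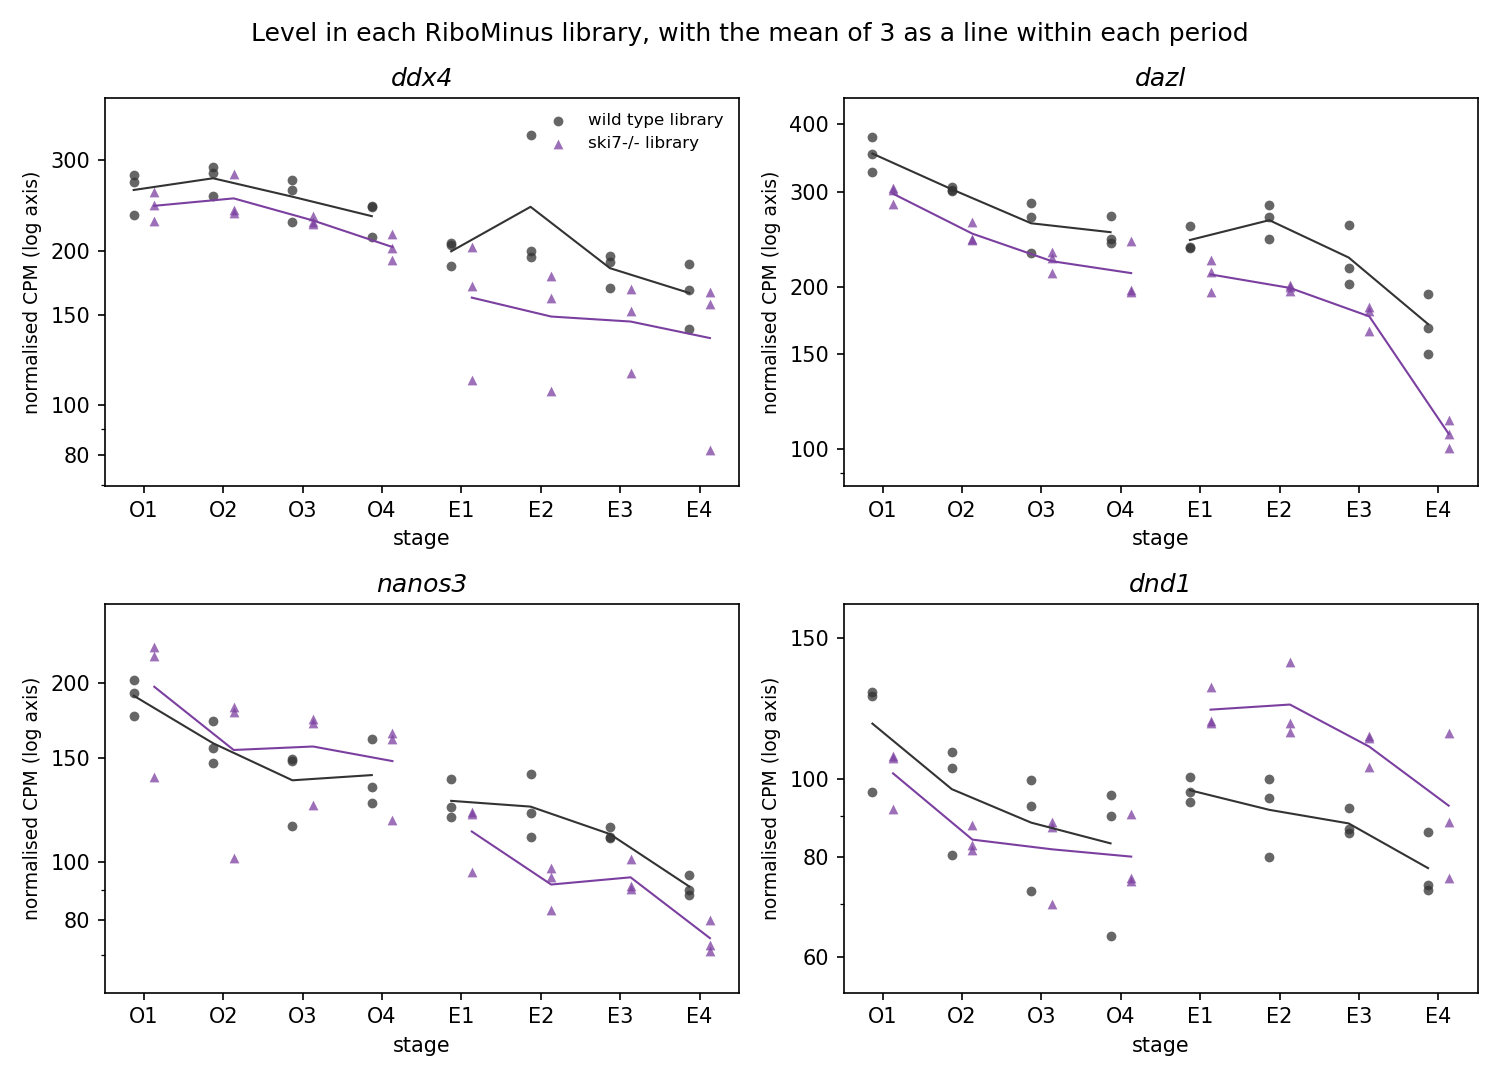
Normalised CPM (log axis, scaled within each period) of each gene in each RiboMinus library by stage, wild type as dots and *ski7*-/- as triangles, with lines through the means of 3 libraries within a period. RiboMinus libraries cover oocytes and embryos, and the *ski7*-/- *dazl* libraries at E4, at 113, 100.2 and 106, lie below the wild-type ones at 149.8, 194 and 167.

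The level in polyA over that in RiboMinus libraries of the same replicate number, both scaled by TMM over the 96 libraries of oogenesis and embryogenesis, was followed over the stages. For *dazl* in wild type the ratios were 1.17, 1.34 and 1.22 at O1 and 1.39, 1.51 and 1.64 at O4. They were 6.23, 5.81 and 4.83 at E1, then 2.06, 2.13 and 1.62 at E2, 1.26, 1.07 and 1.02 at E3 and then 0.692, 0.55 and 0.714 at E4, so that all 3 replicates went from their highest ratios at E1 to below 1 at E4, with no overlap between neighbouring embryo stages. The change from E1 to E4 in polyA minus that in RiboMinus was -3.12 ± 0.17 on the log2 scale (SE; adjusted p = 4.72e-25). It was -1.55 ± 0.22 for *dnd1* (adjusted p = 1.47e-08), whose ratio went from 2.19 ± 0.361 to 0.751 ± 0.0528 (SD, n = 3). It was -0.92 ± 0.34 for *ddx4* (adjusted p = 0.018), from 2.94 ± 0.368 to 1.56 ± 0.111, and the call was lost without any 1 of the wild-type replicates (-0.95, -0.89 and -0.82 without replicates 1, 2 and 3) and with library size alone (-0.11). It was -0.64 ± 0.30 for *nanos3* (adjusted p = 0.0671, and 0.00889 with the replicate as a block, over alternatives from 0.00889 to 0.641), from 1.26 ± 0.09 to 0.817 ± 0.0706. Of all genes, 51.3% passed this test, and with library size alone, where the median of all genes moved from -0.12 to 0.67, *dazl* stood at -2.30 and *dnd1* at -0.73.

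**Figure D3:**
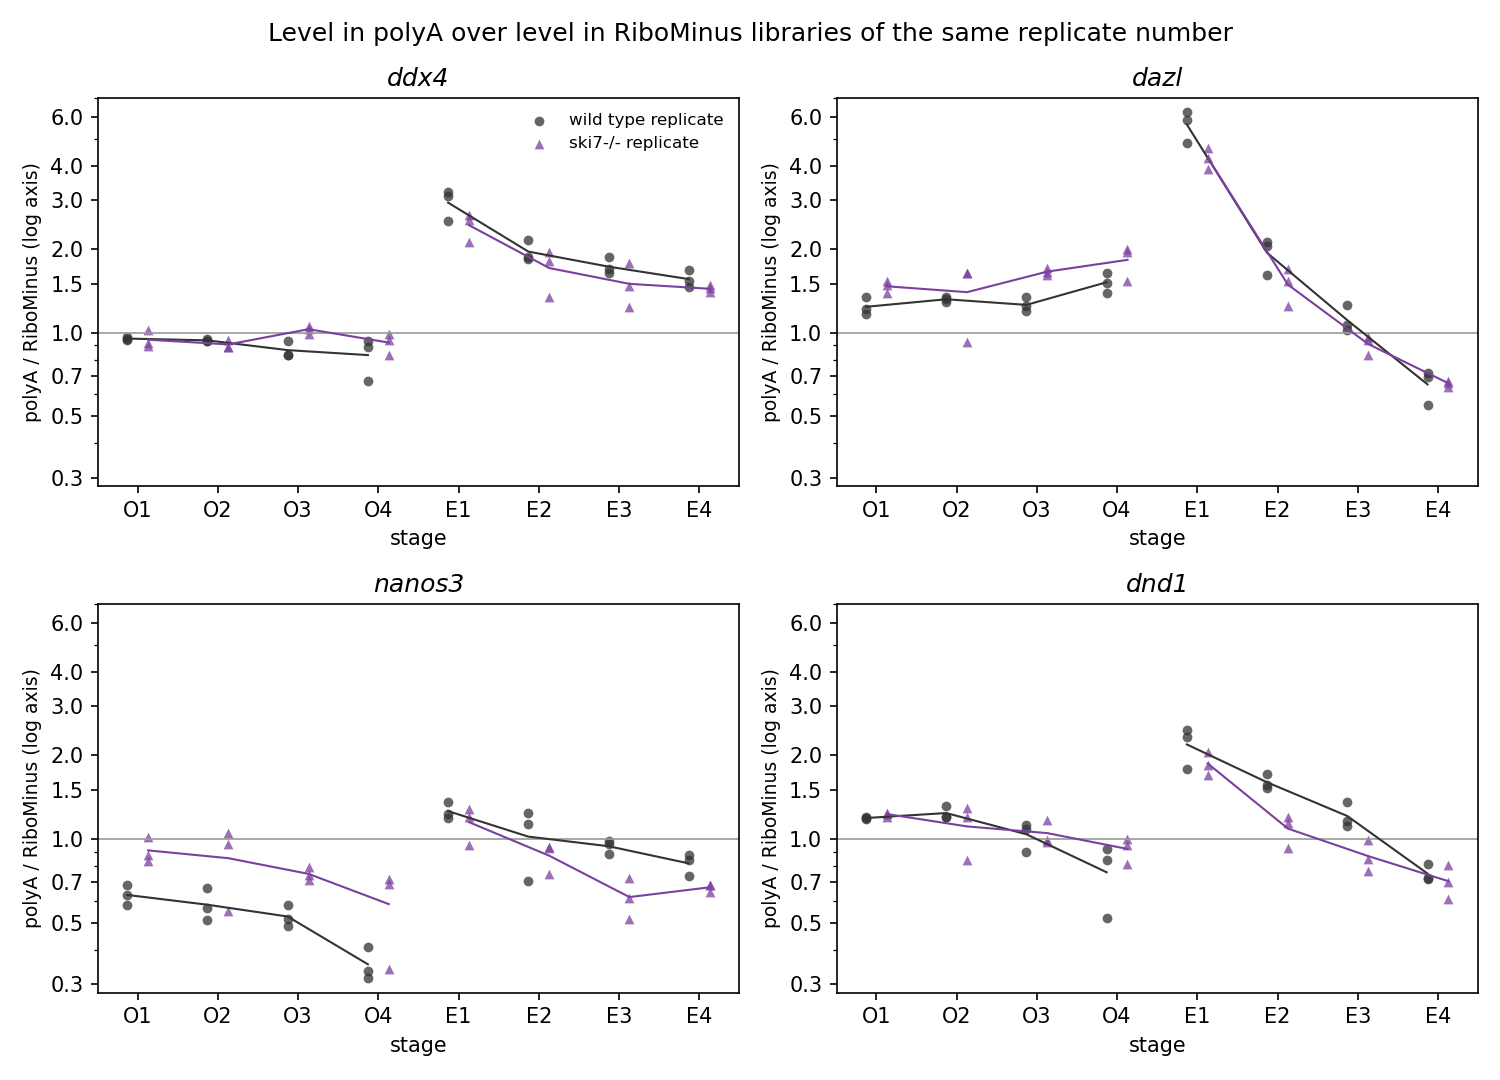
Level in polyA over level in RiboMinus libraries of the same replicate number (log axis) by stage, wild type as dots and *ski7*-/- as triangles, with lines through the means of 3 replicates within a period and a grey line at 1. The wild-type *dazl* ratio falls from 6.23, 5.81 and 4.83 at E1 to 0.692, 0.55 and 0.714 at E4, while the *nanos3* ratio is under 1 in all wild-type oocytes.

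Averaged over the oocyte stages, *nanos3* was lower in polyA than in RiboMinus libraries in wild type, at a log2 difference of -0.98 ± 0.10 (adjusted p = 3.48e-13), with ratios of 0.58, 0.627 and 0.681 at O1 and 0.41, 0.336 and 0.316 at O4. *Dazl* was higher at 0.41 ± 0.06 (adjusted p = 7.34e-09). *Ddx4* stood at -0.16 ± 0.12 (adjusted p = 0.223, and 0.011 with the replicate as a block, over alternatives from 0.000829 to 0.425) and *dnd1* at 0.04 ± 0.08 (adjusted p = 0.627), and 74.3% of all genes passed. Averaged over the embryo stages, *ddx4* was higher in polyA at 0.99 ± 0.12 (adjusted p = 3.07e-11), *dazl* at 0.74 ± 0.06 (adjusted p = 4.93e-18) and *dnd1* at 0.41 ± 0.08 (adjusted p = 4.25e-06), while *nanos3* stood at -0.01 ± 0.10 (adjusted p = 0.952), beside 69.4% of all genes. These averages depend on the scaling between library types: with library size alone, which moved the median of all genes from 0.03 to -0.24 in oogenesis and from 0.07 to -0.23 in embryogenesis, *dnd1* stood at -0.22 and *ddx4* at -0.42 in oocytes, both past the threshold as lower in polyA, *nanos3* stood at -0.32 in embryos, lower as well, and *dnd1* in embryos was no longer called (0.10).

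In *ski7*-/- embryos the *dazl* ratio also went from its highest values to below 1, with 3.90, 4.64 and 4.27 at E1, then 1.25, 1.53 and 1.69 at E2, 0.83, 0.967 and 0.938 at E3 and then 0.639, 0.673 and 0.662 at E4. All 3 mutant *dazl* ratios lay below all wild-type ones at E1 and E3, and above them in oocytes at O1 (1.39, 1.48 and 1.53 against 1.17, 1.34 and 1.22) and O3 (1.71, 1.65 and 1.62 against 1.34, 1.20 and 1.25), while the genotypes overlapped at the other stages. The *nanos3* ratios of all 3 mutants lay above all wild-type ones at O1 (0.836, 0.875 and 1.02 against 0.58, 0.627 and 0.681). The same held at O3 (0.739, 0.796 and 0.713 against 0.485, 0.514 and 0.58). At O4 they were 0.688, 0.72 and 0.34 against 0.41, 0.336 and 0.316, above wild type in 2 of 3 replicates. All 3 lay below wild type at E3 (0.517, 0.612 and 0.726 against 0.883, 0.98 and 0.961) and E4 (0.681, 0.682 and 0.647 against 0.738, 0.838 and 0.874). The genotypes overlapped at O2, E1 and E2. The *dnd1* ratio at E3 was 0.85, 0.764 and 0.992 in mutants and 1.11, 1.36 and 1.16 in wild type, again lower in all 3 mutants. At E2 it was lower in all 3 as well (1.14, 0.927 and 1.20 against 1.71, 1.52 and 1.56). The *ddx4* ratios of all 3 mutants lay above wild type at O3 (1.03, 0.993 and 1.06 against 0.834, 0.831 and 0.932), and overlapped it at the other stages. Whether these ratios differ between genotypes was not tested. The share of all genes with ratios apart is not given here either, so this is a description only.

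The comparison of *ski7*-/- with wild type at each stage gave 19 tests per gene, 11 in polyA and 8 in RiboMinus RNA. *Dazl* was lower in mutants at 9 of 19, *nanos3* lower at 7, *dnd1* higher at 1, and *ddx4* was called at 0, with 3 at an unadjusted p under 0.05, 2 calls by DESeq2's Wald test and 1 by limma-voom. Over the 19 comparisons together, 6.96% of the tests of all genes were called as lower and 6.54% as higher. Over all genes tested, the share called in polyA RNA was 7.97% at O1, 10.8% at O2, 7.84% at O3, 6.41% at O4, 18.4% at INA, 15.1% at ACT, 19.8% at FER, 28.2% at E1, 15.4% at E2, 14.8% at E3 and 15% at E4. In RiboMinus RNA it was 16.3% at O1, 13.0% at O2, 11% at O3, 11.5% at O4, 11.6% at E1, 10.9% at E2, 14.6% at E3 and 12.1% at E4. The stages of a period share their spread and, in oocytes and eggs, their females, so calls at neighbouring stages are not separate evidence. Genotypes that lie apart without a call are a description only.

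**Figure D4:**
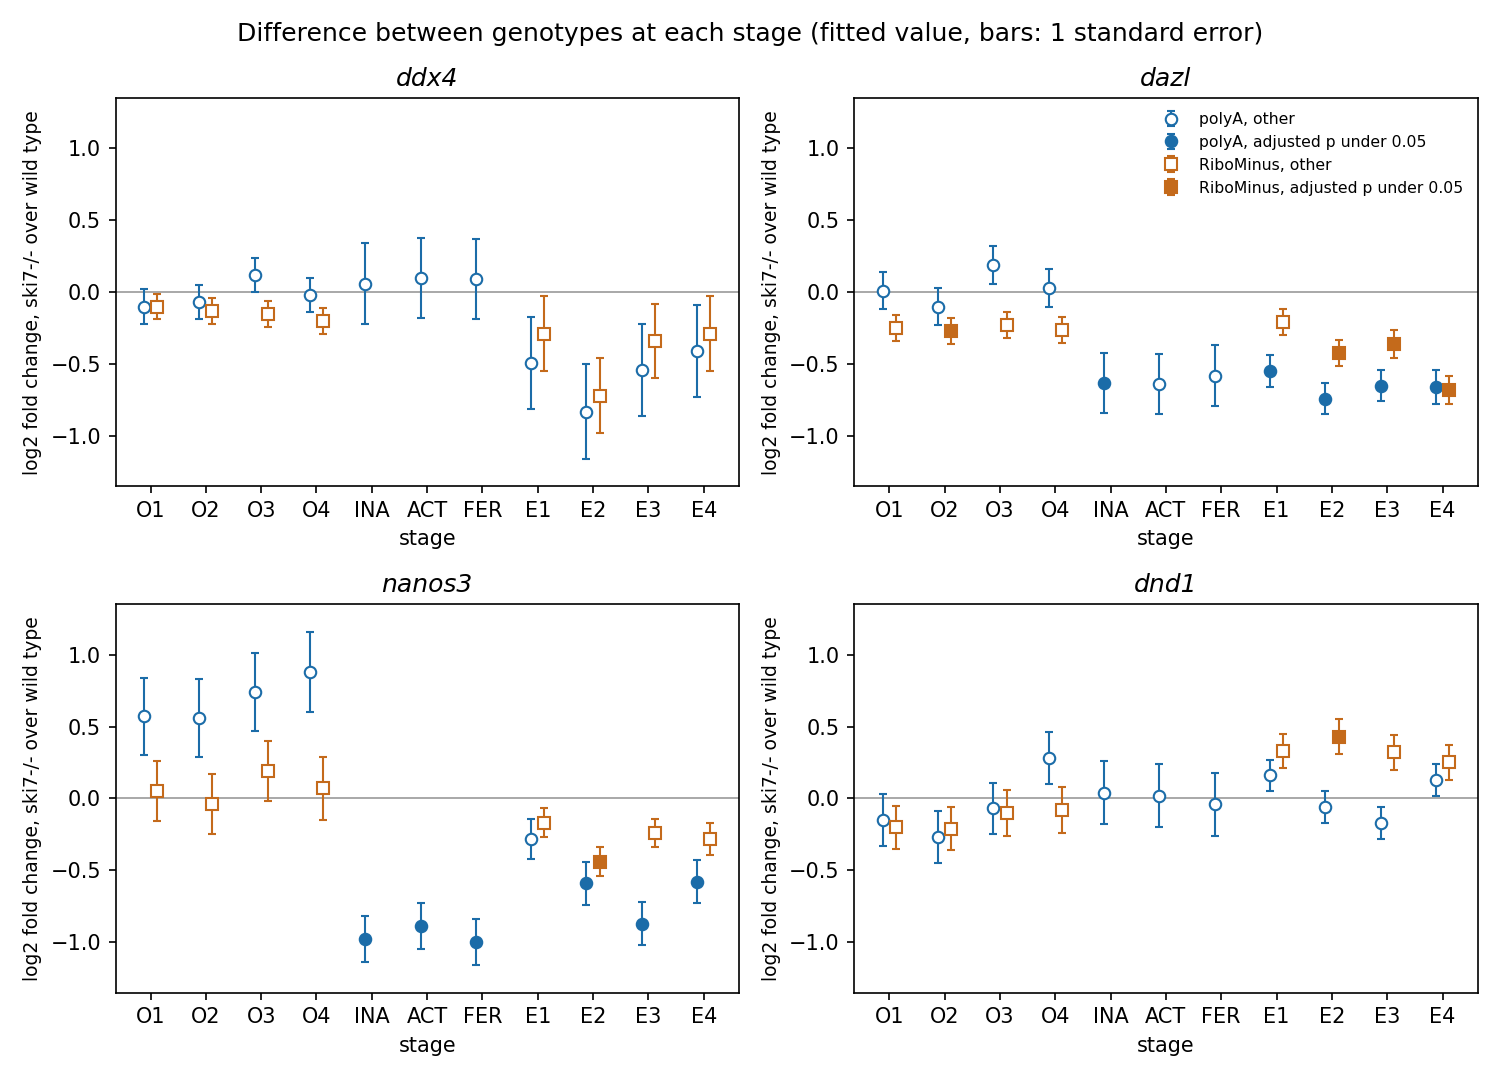
Fitted log2 fold change of *ski7*-/- over wild type by stage in polyA (circles) and RiboMinus (squares) libraries, with bars of 1 standard error and filled symbols where the adjusted p was under 0.05. The *dazl* symbols lie below 0 from INA on, and the *nanos3* polyA symbols stand at 0.56 to 0.88 in oocytes and at -1.0 to -0.28 in eggs and embryos.

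*Dazl* was lower in *ski7*-/- embryos at all 4 stages of polyA RNA, with no overlap between genotypes. Mutant libraries had 576, 713 and 717 normalised CPM at E1 against 1073, 942 and 926 in wild type, a log2 fold change of -0.55 ± 0.11 (adjusted p = 0.0013). At E2 they had 214, 258 and 279.5 against 412, 475 and 368 (-0.74 ± 0.11, adjusted p = 0.000239). At E3 they had 133, 134 and 146 against 235, 188 and 226 (-0.65 ± 0.11, adjusted p = 0.000655). Mutant replicate 1 was the lowest at E1 and E2, at 0.806 and 0.797 of the mean of the other 2. At E4 the mutant libraries had 63.2, 59.1 and 62.4 against 92.6, 92.9 and 106 (-0.66 ± 0.12, adjusted p = 0.000725). These 4 calls held in each of the alternatives run, and without wild-type replicate 2, which stood apart at E2, the E2 value was -0.64.

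RiboMinus embryos gave the same direction for *dazl*, and the genotypes were apart at each stage. The values were 196, 213 and 224 in mutants against 237, 236 and 259.5 at E1, with a log2 fold change of -0.21 ± 0.09 that was not called (adjusted p = 0.16). At E2 they were 196, 201 and 199.5 against 245, 283 and 269 (-0.42 ± 0.09, adjusted p = 0.00766), at E3 183, 165 and 179.9 against 216, 203 and 260.4 (-0.36 ± 0.10, adjusted p = 0.017) and at E4 113, 100.2 and 106 against 149.8, 194 and 167 (-0.68 ± 0.10, adjusted p = 0.000127). The E3 value lost its call without wild-type replicate 3 (-0.26) and without *ski7*-/- replicate 2 (-0.30) or 3 (-0.37). The E2 value was -0.37 and called without wild-type replicate 2.

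In eggs, which have polyA libraries only, *dazl* was lower in mutants by a like amount, near the threshold of the test. Unactivated eggs had 709, 781 and 633 normalised CPM in mutants and 931, 1106 and 1258 in wild type, with a log2 fold change of -0.63 ± 0.21 (adjusted p = 0.0466). Activated eggs had 682, 738 and 656 against 860.4, 1075 and 1298 (-0.64 ± 0.21, adjusted p = 0.0509) and fertilized eggs 685, 704 and 628 against 707, 896 and 1418 (-0.58 ± 0.21, adjusted p = 0.0602). The genotypes did not overlap at any of the 3 stages, narrowly so in fertilized eggs, where wild-type replicate 1, another library that stood apart, was the nearest to the mutants, and the wild-type libraries were spread more widely than the mutant ones, with replicate 3 at the top. Without that replicate, which stood apart over all genes, the values were -0.52, -0.49 and -0.26, of which the first 2 were called. Without wild-type replicate 1 the value in fertilized eggs was -0.79 and called. The INA call was lost without wild-type replicate 2 (-0.64), without *ski7*-/- replicate 1 (-0.63), 2 (-0.71) or 3 (-0.53), and with library size alone (-0.41), where the median of all genes stood at 0.27 in place of 0.05. Over the 14 alternatives run, *dazl* was called in 6 at INA, 7 at ACT and 3 at FER.

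In polyA oocytes the *dazl* levels of the genotypes were close, with log2 fold changes between -0.10 and 0.19 and none called. In RiboMinus oocytes they lay between -0.27 and -0.23, and O2, with 245, 244 and 264 normalised CPM in mutants against 302, 301 and 306 in wild type, was called (adjusted p = 0.0411). That call was lost without any 1 of the 6 replicates (-0.27, -0.27 and -0.27 without wild-type replicates 1, 2 and 3, and -0.25, -0.24 and -0.30 without those of *ski7*-/-).

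The largest difference between genotypes among the 4 genes was that of *nanos3*, at a polyA level near 2-fold lower in mutant eggs on the TMM scale. Eggs have polyA libraries only, so the level in RiboMinus RNA was not measured there. At the nearest RiboMinus stages the mutant and wild-type means were 148.0 and 140.2 at O4 and 112.7 and 126.9 at E1, neither called. Unactivated eggs had 15.9, 21.7 and 17.7 normalised CPM in mutants and 35.8, 35.4 and 38.6 in wild type, with a log2 fold change of -0.98 ± 0.16 (adjusted p = 0.000957). Activated eggs had 24.3, 29.1 and 25.9 against 47.5, 50.2 and 49.2 (-0.89 ± 0.16, adjusted p = 0.00206), and fertilized eggs 18.6, 25.5 and 22.7 against 38.7, 44.7 and 49.7 (-1.0 ± 0.16, adjusted p = 0.00086). The genotypes were far apart at each stage, and the rise from INA to ACT seen in wild type was matched in direction by each mutant replicate. The 3 calls held without any 1 replicate and under each scaling, and without wild-type replicate 3, which stood apart, the values were -0.94, -0.89 and -0.92. The smallest differences over all alternatives run were -0.77 at INA, -0.69 at ACT and -0.76 at FER.

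In polyA embryos *nanos3* was lower in mutants at E2, E3 and E4. At E1 the libraries had 87.5, 105 and 92.3 in mutants and 137, 105 and 105 in wild type, where the highest mutant just met the lowest wild-type library (-0.28 ± 0.14, adjusted p = 0.155). At E2 they had 67.6, 59.3 and 75.9 against 112, 78.1 and 115 (-0.59 ± 0.15, adjusted p = 0.0105). At E3 they had 45.8, 47.0 and 56.8 against 83.9, 98.0 and 90.6 (-0.87 ± 0.15, adjusted p = 0.000465), and at E4 43.2, 47.7 and 40.7 against 62.7, 64.2 and 70.1 (-0.58 ± 0.15, adjusted p = 0.0111). The groups were apart at these 3 stages, narrowly at E2, where wild-type replicate 2 was the low one and the value without it was -0.75. The E2 value lost its call without wild-type replicate 3 (-0.49) or *ski7*-/- replicate 2 (-0.49), and the E4 value without wild-type replicate 3 (-0.53) or *ski7*-/- replicate 1 (-0.55) or 3 (-0.51).

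In RiboMinus embryos the *nanos3* difference was smaller, at -0.17 at E1, -0.44 at E2, -0.24 at E3 and -0.28 at E4 on the log2 scale. E2 was called, with 83.3, 94.4 and 97.8 normalised CPM in mutants against 121, 141 and 110.5 in wild type (adjusted p = 0.0106), and lost its call without wild-type replicate 2 (-0.33), one of the libraries that stood apart, or *ski7*-/- replicate 1 (-0.38). The genotypes did not overlap at E2, E3 and E4.

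In polyA oocytes the *nanos3* fold change went the other way and was not called by edgeR's test. Mutant libraries had 156, 157 and 118 normalised CPM at O1 against 91.9, 89.2 and 109 in wild type (0.57 ± 0.27, adjusted p = 0.247), and 101, 142 and 88.2 at O2 against 71.6, 73.4 and 78.7 (0.56 ± 0.27, adjusted p = 0.171). They had 112, 118 and 77.7 at O3 against 61.6, 65.8 and 57.0 (0.74 ± 0.27, adjusted p = 0.107), and 101, 104 and 36.7 at O4 against 48.1, 47.7 and 35.5 (0.88 ± 0.28, adjusted p = 0.0656). The genotypes overlapped at O4 only, where *ski7*-/- replicate 3 lay at the wild-type level. That female was the lowest of the 3 mutants in all 8 oocyte libraries, at 0.358 to 0.754 of the mean of the other 2. Without it the values were 0.72, 0.72, 0.93 and 1.21 from O1 to O4, all called as higher. With all 3, DESeq2's Wald test called O4 as higher (adjusted p = 0.0283, over alternatives from 0.000192 to 0.326), and a fit of O1 alone called O1 (adjusted p = 0.0434, over alternatives from 0.0113 to 0.514). RiboMinus oocytes of the same fish gave -0.04 to 0.19, none called, with 161, 165 and 118 normalised CPM in mutants and 134, 161 and 126 in wild type at O4. Of the marker lists, the 9 zygotic markers summed to 347, 55.8 and 9.91 normalised CPM in the mutant polyA O4 libraries, with *apoeb* at 6.73 to 344. In the wild-type ones they summed to 56.0, 12.7 and 4.18. In both genotypes these sums were lowest in replicate 3 at all 4 polyA oocyte stages. The 9 follicle cell markers summed at O4 to 228, 304 and 312 in mutants and to 199.7, 324 and 326 in wild type. Their part in the result was not tested. At O2 the value without *ski7*-/- replicate 1, which stood apart there, was 0.64.

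The *ddx4* level was lower on average in mutant embryos at each stage, but its replicates were spread widely and no difference was called. Its standard errors were 0.26 to 0.33 in embryos, against 0.09 to 0.15 for the other 3 genes. At E1 mutant polyA libraries had 179, 391 and 324 normalised CPM and wild type 434, 437 and 384 (-0.49 ± 0.32, adjusted p = 0.278). At E2 they had 125, 273 and 263 against 292, 572 and 316 (-0.83 ± 0.33, adjusted p = 0.0945), and at E4 106, 211 and 194 against 211, 238 and 229 (-0.41 ± 0.32, adjusted p = 0.451). RiboMinus E2 gave 106, 178 and 162 against 194, 336 and 199.8 (-0.72 ± 0.26, adjusted p = 0.0772). Genotypes did not overlap at E2, E3 and E4 of polyA and at E2 and E3 of RiboMinus RNA. At polyA E4 they all but met, with the highest mutant and the lowest wild-type library both at 211.2 normalised CPM. The share of all genes with genotypes apart is not given here, so this is a description only. The low mutant library was replicate 1 in all 8 embryo groups, at 0.466 to 0.721 of the mean of the other 2, and the high wild-type library at E2 was replicate 2. Mutant embryo libraries of the same number deviated together over all genes as well (r of 0.715 to 0.917 between stages), so the 8 groups are not separate observations of this replicate. Without the former the E2 values were -0.55 in polyA and -0.54 in RiboMinus RNA, and without the latter -0.45 and -0.41.

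In eggs *ddx4* had 261, 291 and 262 normalised CPM in mutants and 207, 182 and 372 in wild type when fertilized (0.09 ± 0.28, adjusted p = 0.837). The mutants lay between wild-type replicate 3 and the other 2, and without that replicate the value was 0.47 and past the threshold, the only egg stage where this was so. In oocytes the log2 fold changes of *ddx4* lay between -0.20 and 0.12 over both library types, and the genotypes overlapped at all 8 comparisons. At O4 in RiboMinus RNA, the lowest of these, *ddx4* was past the threshold without wild-type replicate 1 (-0.27).

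*Dnd1* was the one gene of the 4 with a call as higher in mutants, in RiboMinus RNA at E2. In RiboMinus RNA mutants had 118, 130.4 and 118 normalised CPM at E1 against 93.7, 96.3 and 101 in wild type (0.33 ± 0.12, adjusted p = 0.0803). At E2 they had 114, 140.0 and 117 against 79.9, 100.2 and 94.8 (0.43 ± 0.12, adjusted p = 0.0296), and without wild-type replicate 2, which stood apart, the value was 0.50. At E3 they had 113, 113 and 104 against 85.6, 86.6 and 92 (0.32 ± 0.12, adjusted p = 0.0877), and at E4 114, 88.5 and 75.4 against 72.7, 86.0 and 73.9 (0.25 ± 0.12, adjusted p = 0.206). Mutant libraries were above all wild-type ones at E1, E2 and E3 and overlapped them at E4. The E2 call was lost without wild-type replicate 1 (0.35) or 3 (0.45) or *ski7*-/- replicate 2 (0.34). In polyA embryos the log2 fold changes were 0.16, -0.06, -0.17 and 0.13 from E1 to E4 with overlap at each stage, and whether the library types differ in the effect was not tested. In eggs they lay between -0.04 and 0.04, and in oocytes between -0.27 and 0.28, with overlap throughout. Without wild-type replicate 2, which lay below the mean of the other 2 in all 8 oocyte groups, the RiboMinus values at O1 and O2 were -0.33 and -0.32, lower in mutants and past the threshold.

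Whether the effect of the genotype differed between the stages of a period was tested with an interaction term. For the 4 genes edgeR called 0 of 20 such tests, with 1 at an unadjusted p under 0.05, that of *dazl* in RiboMinus embryos (adjusted p = 1). With the replicate number within each genotype as a block, 0 were called. Of all genes, 0.0% passed in polyA oogenesis, 0.0% in eggs, 0.498% in polyA embryogenesis, 0.0295% in RiboMinus oogenesis and 0.0% in RiboMinus embryogenesis. The calls at single stages above are therefore not shown to be particular to those stages.

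Whether the effect differed between periods was asked after the values were seen, with limma-voom and the replicate set as a random block. These fits used 1 TMM scale over all polyA or all RiboMinus libraries, and no other scaling was run for them. For *nanos3* the effect in eggs minus that in oogenesis was -1.67 ± 0.29 on the log2 scale (adjusted p = 3.93e-05), and in polyA embryos minus oogenesis -1.16 ± 0.27 (adjusted p = 0.00252). For *dazl* it was -0.77 ± 0.24 in eggs minus oogenesis (adjusted p = 0.0175) and -0.66 ± 0.24 in polyA embryos minus oogenesis (adjusted p = 0.0784). For *dnd1* it was 0.50 ± 0.14 in RiboMinus embryos minus oogenesis (adjusted p = 0.00991). No difference between periods was called for *ddx4*, and for none of the 4 genes did limma-voom call one between embryos and eggs with all replicates. With edgeR and the libraries taken as independent, that of *nanos3* in embryos minus eggs was called (adjusted p = 0.017, over alternatives from 0.017 to 0.561). Without wild-type replicate 3 that of *ddx4* in embryos minus eggs was -0.98, from -0.54, and called (adjusted p = 0.0149, over alternatives from 0.0149 to 0.694). Of all genes, 19% were called for eggs minus oogenesis, 9.91% for polyA embryos minus oogenesis, 12.3% for embryos minus eggs and 18.3% for RiboMinus embryos minus oogenesis. The *dazl* value in eggs minus oogenesis was -0.49 without wild-type replicate 3 and -0.60 without *ski7*-/- replicate 3, neither called. The *dnd1* value was 0.41 and 0.40 without wild-type replicates 1 and 3, neither called. Without wild-type replicate 3 the polyA embryo value of *dazl* (-0.68) was called. Without *ski7*-/- replicate 3 the RiboMinus embryo value of *nanos3* (-0.48, from -0.29) was called. The sources do not say that oocytes, eggs and embryos came from the same fish, so the period and the set of fish cannot be told apart.

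Other genes of the germ plasm and germ granules were read from a list of 16 symbols, such as *buc* and *tdrd6*, of which 11 were matched and 10 tested. In polyA embryos their 40 tests gave 4 higher and 5 lower calls, 22.5% against 18.3% of all genes, with stage medians of -0.16 to 0.04 on the log2 scale. In eggs there were 3 higher and 2 lower calls in 30 tests (16.7% against 17.8%), in polyA oocytes 4 and 0 in 40 (10.0% against 8.24%), and in RiboMinus RNA 1 and 3 in oocytes (10.0% against 12.9%) and 1 and 4 in embryos (12.5% against 12.3%), all near the shares of all genes. *Igf2bp3*, which encodes an mRNA-binding protein, was higher in mutants at all 11 polyA stages, by 0.62 to 1.34 on the log2 scale, and lower at the 4 RiboMinus embryo stages, by -0.33 to -0.29. *Ca15b*, a germ plasm-localized carbonic anhydrase transcript, was lower at 3 polyA embryo stages and at RiboMinus O1, by -1.04 to -0.37, and *rgs14a* was higher at RiboMinus E3 (0.60).

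The piRNA pathway silences transposons in germ cells, and 13 of 15 symbols of its list were matched. Of 44 polyA embryo tests of its genes 11 were higher and 4 lower, 34.1% against 18.3% of all genes, and of 52 RiboMinus embryo tests 12 and 1, 25.0% against 12.3%. The calls as higher and lower were 3 and 1 of 30 (13.3% against 17.8%) in eggs, 5 and 0 of 48 (10.4% against 8.24%) in polyA oocytes and 9 and 1 of 52 (19.2% against 12.9%) in RiboMinus oocytes. These tests repeat the same genes over stages and library types that are not separate evidence, and 8 of the embryo calls as higher are those of *gtsf1*. *Gtsf1*, a zinc-finger cofactor of Piwi proteins, was higher at all 8 embryo comparisons, by 0.87 to 1.12 on the log2 scale, and *asz1*, which encodes a germ granule protein, at 7 of 8 oocyte comparisons, on low read numbers, by 2.01 to 3.48. *Pld6*, a mitochondrial outer membrane protein of the pathway, was lower at INA, at the 4 polyA embryo stages and at RiboMinus E4, by -1.15 to -0.57, and *tdrd12* at RiboMinus O1 (-0.62).

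Among genes of polyA tail length and partners of Nanos and Dazl, 24 of 25 symbols were matched and 18 or 19 tested. In eggs 6 tests were higher and 7 lower of 54, 24.1% against 17.8% of all genes, and in polyA embryos 9 and 5 of 72, 19.4% against 18.3%. They were 4 and 0 of 72 (5.56% against 8.24%) in polyA oocytes, 2 and 3 of 76 (6.58% against 12.9%) in RiboMinus oocytes and 6 and 4 of 72 (13.9% against 12.3%) in RiboMinus embryos. The share was above that of all genes in eggs, near it in embryos and below it in oocytes. These tests repeat the same genes over stages that are not separate evidence. *Cnot11*, a subunit of the CCR4-NOT deadenylase complex, was higher at all 8 embryo comparisons, by 0.91 to 1.49 on the log2 scale, and *cnot8*, a deadenylase of that complex, was lower at 6, by -0.31 to -0.19. *Pabpc1l*, the embryonic polyA-binding protein, was lower in eggs and at polyA E1, by -1.76 to -0.80, and *cpeb4b*, whose family binds mRNAs to control their tails, was higher at 4 comparisons, by 0.24 to 1.11. Of the oocyte factors, *zar1*, a maternal regulator of stored mRNA, was higher at 7 embryo comparisons, by 0.69 to 1.52, its relative *zar1l* was lower at the 3 egg and 3 RiboMinus embryo stages, by -3.39 to -1.63, and *gdf9* was higher at RiboMinus E3 (0.39). Of the follicle cell markers *star* was called as lower at polyA O1, where the 3 mutant libraries had 0 reads of it. Only 1 blood marker could be tested, at the 4 polyA oocyte stages, and 1 to 3 zygotic markers at each comparison, and edgeR called 0 of these 4 and 35 tests, with 0 and 1 at an unadjusted p under 0.05.

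The genes most like each of the 4 in course were found by Pearson's r over the 11 wild-type polyA stage means of log2 CPM, scaled over all 66 libraries, among 10238 genes. For *ddx4* they were *MEMO1*, *zgc:77880* and *FOXK2*, each at r = 0.98, and for *dazl* they were *lemd1*, *DNAJC9* and *CDC45*, each at r = 0.99. For *dnd1* they were *UBE2A* (r = 0.92), *ELAVL2* and *CHIC2* (both r = 0.91), and for *nanos3* they were *SNU13* (r = 0.88), *rac1a* (r = 0.87) and *NKAIN1* (r = 0.84). Among the 4 genes themselves r was 0.81 between *ddx4* and *dazl*, 0.82 between *ddx4* and *dnd1*, 0.84 between *dazl* and *dnd1*, and 0.16, 0.43 and 0.64 between *nanos3* and *dazl*, *ddx4* and *dnd1*. These are descriptions over 11 stage means that share libraries and scaling, with the largest steps common to many genes.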

How the data were processed

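RNA-seq read counts per gene were deposited by the authors for 114 libraries. Per the study's methods, stranded single-end reads were aligned to GRCz11 (Ensembl 92) with HISAT2 2.1.0 and reads that map to 1 place were counted with HTSeq 0.9.1, so reads shared with close copies were dropped. Transcript estimates made with kallisto 0.43.0 were not used here, because no table paired transcripts with genes. Reads outside genes (10.3% to 29.4%) were left out of library sizes. Of 31466 identifiers, 28965 had a symbol.

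The main test was the quasi-likelihood test of edgeR 4.0.16 with TMM scaling on genes that reached 10 CPM in 3 libraries or more, 1 fit per period and library type, as in the study, with Benjamini-Hochberg adjustment within each comparison and a threshold of 0.05, two-sided. Steps between periods and polyA against RiboMinus had fits over all libraries concerned. limma 3.58.1, DESeq2 1.42.0, other scalings and filters, blocks and leaving out replicates were alternatives. The scripts (R 4.3.3, Python 3.11.15) were tested on simulated data. From each gene list, up to 2 genes higher and 2 lower in mutants at most comparisons were named. The 4 genes, the lists and the tests were chosen with earlier results of these data known.

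Same replicate numbers deviated together between stages in oocytes (r of 0.532 to 0.89 in wild type, 0.065 to 0.786 in mutants) and eggs (0.646 to 0.941 and 0.467 to 0.868), which the methods take from 1 female, and between library types (0.166 to 0.811). In embryos they did so in mutants (0.715 to 0.917) and in wild-type replicates 1 and 3 (0.395 to 0.782). For wild-type embryo replicate 2 the lowest r was 0.038, and between genotypes, which are different fish, r lay between -0.26 and 0.387, so wild-type embryos and the 2 genotypes were not taken as pairs. Libraries of oocytes and of eggs share 3 females per genotype, so p-values measure the spread between these samples and count stages of 1 female as independent. In embryos no source ties a replicate number to a female, and the stages were counted as independent too. Depth (median 9182535 polyA and 4649868 RiboMinus reads) sets the counting error, and the lowest count of the 4 genes was 110 reads.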

Additional observations from a re-analysis of the deposited data

Results flagged for a closer look

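The effect of the *ski7* genotype was called as different between periods in at least 1 of 4 comparisons for 3 of the 4 genes. The limma-voom tests of the difference itself were chosen after the values were seen. They used 1 TMM scale over all stages of a library type, and no other scaling was run for them. For eggs minus oogenesis 2 of the 4 genes were called, beside 19% of all genes. For polyA embryos minus oogenesis it was 1 of 4 beside 9.91%, and for polyA embryos minus eggs 0 of 4 beside 12.3%. For RiboMinus embryos minus oogenesis it was 1 of 4 beside 18.3%. The share of all genes called in any of these comparisons is not given here. The period and the set of fish cannot be told apart. For *nanos3* the effect in eggs was lower than that in oogenesis by -1.67 on the log2 scale, and the effect in polyA embryos by -1.16, and both kept their calls without any 1 replicate. For *dazl* the effect in eggs differed from that in oogenesis by -0.77, a call lost without replicate 3 of either genotype. The *dazl* difference between genotypes in INA eggs was itself smaller with library size alone (-0.41). For *dnd1* the effect in RiboMinus embryos was higher than that in RiboMinus oocytes by 0.50, a call lost without wild-type replicate 1 or 3.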

How the results depend on the processing

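Over the 4 genes, 192 results were recomputed under 1916 alternatives in all, of which 1708 kept their direction and their side of the threshold, 60 lost a call, 57 gained one, 3 changed direction, and 88 were uncalled on both sides with another sign. Over the 19 genotype comparisons the 9 calls of *dazl* were 6 to 13 in the alternatives, all as lower. The 7 calls of *nanos3* as lower were 4 with a fit per stage and 5 to 7 in the others, beside calls as higher in polyA oocytes, 4 without *ski7*-/- replicate 3 and 1 each with the DESeq2 Wald test, the replicate block (O4) and the fit per stage (O1). The calls of *ddx4* went from 0 to 2 with the DESeq2 Wald test, to 1 with limma-voom, where the replicate number within a genotype was a random block, and to 3 with the replicate block, and between 0 and 1 without any 1 replicate. Those of *dnd1* went from 1 to 0 without a filter and with a fit per stage, and between 0 and 3 without any 1 replicate. A fit per stage left few degrees of freedom and called 77 to 1156 genes against 617 to 2601, and there *nanos3* at INA (-0.96, adjusted p = 0.057, over alternatives from 1.68e-07 to 0.057) lost its call. With the replicate number as a replicate block, the wild-type steps within a period had 13 calls in place of 6, 4 in place of 0 in oocytes and eggs, where a number is a female, and 9 in place of 6 in embryos, where no source ties it to one. Between genotypes same numbers did not pair the samples. With edgeR and the libraries taken as independent, the differences between periods had 8 calls in place of 4. With library size alone 3 *dnd1* values changed direction: E1 to E2 in polyA (0.02), FER to E1 (0.47) and polyA against RiboMinus in oogenesis (-0.22). The median of all genes moved at these 3 comparisons too, from 0.07 to 0.45, from -0.04 to 0.38 and from 0.03 to -0.24. The cause was not tested. With 3 replicates per group, the standard errors given limit which differences could be detected.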
